A study of Macaca mulatta with 4 samples.

Results

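Retinoic acid synthesis and receptors were represented by 9 genes, chosen by symbol among the 30807 genes of the deposited count matrices. They were the synthesizing enzymes ALDH1A1, ALDH1A2 and ALDH1A3, the degrading enzyme CYP26B1 and the nuclear receptors RARA, RARB, RARG, RXRA and RXRG. UMIs (unique molecular identifiers, each standing for 1 captured RNA molecule) were counted on these genes in nuclei of the fetal rhesus macaque cerebellum, in all barcodes with at least 500 genes. The groups were 2 Control fetuses, which received no intervention, and 2 LPS fetuses, whose mothers were given 1 mg of lipopolysaccharide from E. coli into the amniotic fluid 5 days before delivery. Each group had a female and a male fetus and each fetus gave 1 library, so the fetus was the replicate. The Control female and Control male were at 130 days of gestation, the LPS female at 131 and the LPS male at 133 days. The labels and the study's methods give Control animals no intervention, although its results speak of a placebo. Taken as labelled, the effect of LPS and that of the injection cannot be told apart. Both LPS fetuses were also older than both Control fetuses, so the effects of LPS and of gestational age cannot be told apart either. Where 4 values are given in a row, they stand for the Control female, Control male, LPS female and LPS male libraries, in that order.

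Retinoic acid is made from vitamin A by oxidation of retinol to retinaldehyde, and then of retinaldehyde to retinoic acid by the ALDH1A enzymes. It diffuses to nearby cells, where it binds RAR proteins that sit on DNA as pairs with RXR proteins, and CYP26 enzymes break it down and so limit where it acts. In the developing brain the meninges, the membranes around the brain, are a known source of retinoic acid, and the cerebellar granule cells divide directly beneath them.

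The 4 libraries held 34282015 to 61665690 UMIs, and 32587 barcodes reached 500 genes, with 9256, 8621, 6905 and 7805 in the single libraries. Median depth was 4506, 1882, 4062 and 2308 UMIs per nucleus, so both male libraries were shallower than both female ones. Of all UMIs, 73.9, 58.7, 74.1 and 38.7% lay in these nuclei. The rest was in other barcodes, and free RNA was profiled in empty droplets with a median of 182 to 467 UMIs. Any 2 libraries shared 16 to 22 of their barcodes, and 7.93 to 11.7 would be shared by the size of the 10x list. Clustering without the retinoic acid genes gave 23 clusters, 21 of them named by marker genes as 15 classes, of which 13 had at least 10 nuclei in every library. Orders of classes below are among these 13, and unipolar brush cells (75 nuclei) and choroid or ependymal cells (40 nuclei) are left out of them. An unnamed cluster of low depth, led by ribosomal genes, took 1868 of its 2404 nuclei from the LPS male. Meningeal fibroblasts numbered 136, 212, 156 and 40, which is 1.47, 2.46, 2.26 and 0.512% of the nuclei. Their collagen marker COL1A2 was at 1133, 1538, 917 and 955 CPM (UMIs of the gene within a class and library, scaled to the same total in each), and decorin (DCN) was at 986, 678, 945 and 510 CPM. The 13 fibroblast markers summed to 12900, 13910, 10920 and 9202 CPM in this class, and to 632, 1031, 782 and 996 CPM in endothelial cells. The class was named by this same list, so these sums describe the label and do not test it.

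ALDH1A2 (ENSMMUG00000019504), the main enzyme of embryonic retinoic acid synthesis, was found in meningeal fibroblasts. Its level there was 1112, 1415, 983 and 1422 CPM, a mean of 1233 ± 220.5 (SD, n = 4). These nuclei held 2650 of its 3347 UMIs, or 79.2%. All 4 libraries were high and lay close together, without a gap between Control and LPS. The next of the 13 classes was cycling glia with a mean of 9.40 CPM, 131 times lower, or 1.33 CPM without the Control male, and no library of it reached the fibroblasts. In the 12 other classes of the 13 ALDH1A2 stayed below the empty droplets of the same library, which were at 12.1, 65.0, 26.1 and 8.03 CPM. These included 395 UMIs over 20453 granule nuclei. The small classes left out of the order had few UMIs but were above the droplets in 3 of 4 libraries, with means of 47.4 CPM in choroid or ependymal cells (4 UMIs) and 35.0 CPM in unipolar brush cells (12 UMIs).

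At resolution 1.0, finer than the 0.5 used for the classes, 31 nuclei were named mural cells (of vessel walls) and 513 meningeal fibroblasts. Mural cells had no class of their own at 0.5, so the fibroblast class may include some, and their part was not tested. Within the fibroblasts, 429 of 544 nuclei had at least 1 UMI of ALDH1A2, and 226 had 5 or more. As depth sets such shares, each nucleus was also thinned to 1000 UMIs. The thinned share with ALDH1A2 was 64.4, 60.7, 47.4 and 45.9% (exact 95% intervals 55.6 to 72.5, 53.6 to 67.5, 39.3 to 55.6 and 29.5 to 63.1%). The same shares in granule nuclei were 0.505, 1.00, 0.689 and 0.273%. Before thinning they were 89.0, 80.2, 71.2 and 67.5% in fibroblasts, with median depths of 4622, 3227, 3975 and 2822 UMIs, and 1.84, 1.73, 2.67 and 0.774% in granule nuclei, with median depths of 4297, 1695, 3846 and 2656 UMIs. The thinned share was lower in both LPS libraries than in both Control libraries, while the CPM of ALDH1A2 overlapped between the groups, so no order was read from the share. Intervals of shares cover counting error only.

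ALDH1A3 (ENSMMUG00000006659), another retinaldehyde dehydrogenase, had the same source. Fibroblasts held 750 of its 874 UMIs, 85.8%, at 301, 582, 146 and 262.5 CPM (mean 323 ± 185, SD, n = 4). Relative to the mean, the spread was wider than for ALDH1A2, with the Control male highest and the LPS female lowest. Purkinje cells came next with a mean of 10.6 CPM from 21 UMIs, and only the Control female among them, at 16.3 CPM, was above its empty droplets, at 8.73 CPM. ALDH1A3 UMIs per 100 ALDH1A2 UMIs in fibroblasts came to 27.1, 41.1, 14.9 and 18.5. UMIs of both enzymes were found in 258 of the 544 fibroblast nuclei. Doublets were called for 11.4% of this class and kept, and their part was not tested. Of the 429 nuclei with ALDH1A2, 60.1% also had ALDH1A3, against 22.6% of the 115 without it, though the former were deeper, with a median of 3897 against 2755 UMIs. After thinning, ALDH1A3 was found in 29.6% of 297 nuclei with ALDH1A2 and in 22.5% of 227 without it. Thinning also moves nuclei from the former group to the latter. The libraries differed, with 34.1 against 19.1% in the Control female and 34.4 against 35.4% in the Control male after thinning.

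ALDH1A1 (ENSMMUG00000013303), the form of the enzyme known from dopamine neurons and retina, was sparse, with 367 UMIs in all nuclei. Its highest mean among the 13 classes was again in fibroblasts, at 51.5, 21.5, 32.1 and 29.2 CPM, but 77 UMIs stood behind it. Choroid or ependymal cells had a mean of 43.8 CPM from 4 UMIs. The fibroblasts were above the empty droplets, which held 2.44 to 5.63 CPM, in all 4 libraries. Golgi cells followed among the 13 with a mean of 11.8 CPM from 15 UMIs (7.75 CPM without the LPS male), and their libraries did overlap with the fibroblasts. In astrocytes the LPS male stood apart at 35.5 CPM, while the other libraries were at 0.394, 4.64 and 1.32 CPM. There, 16 of 302 nuclei had a UMI, and 1 to 3 nuclei had one in the other libraries. Purkinje nuclei, 118 in all, held 0 UMIs of ALDH1A1, which for so sparse a gene does not bound how many of them express it.

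**Figure D1:**
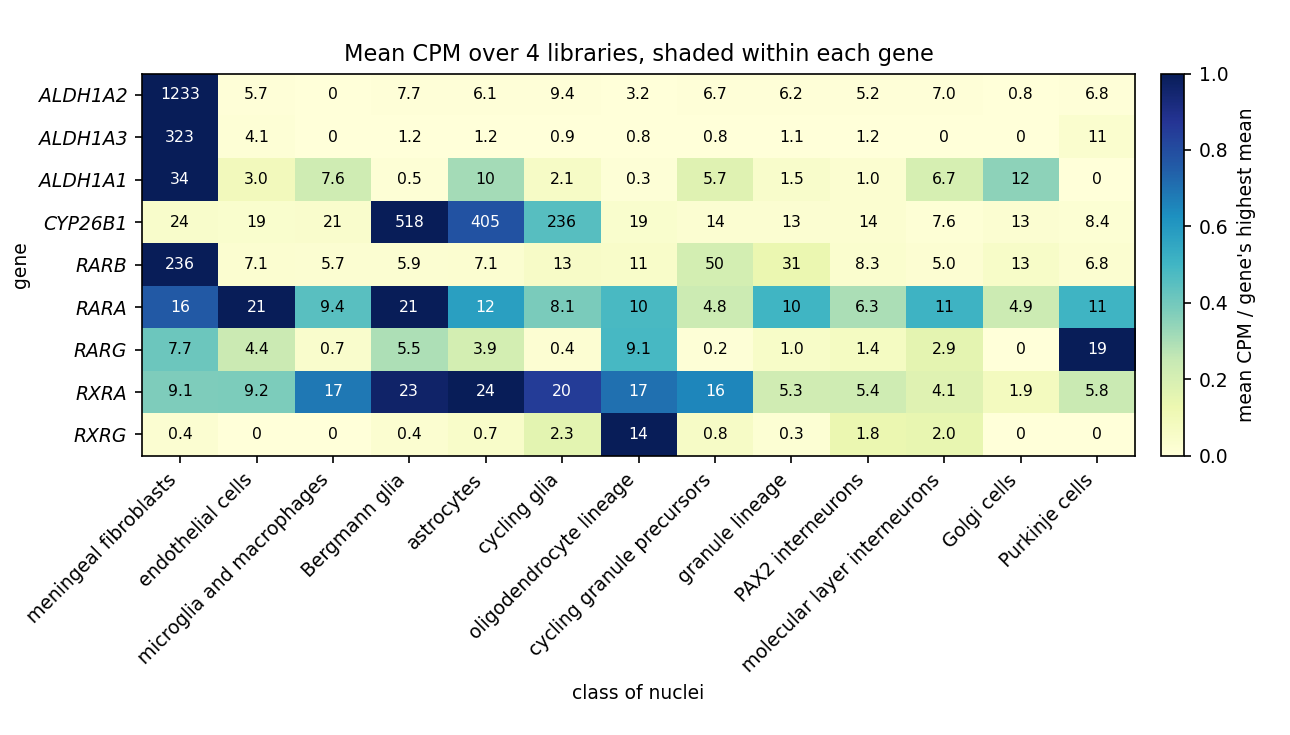
Mean CPM of the 9 genes (rows) in the 13 classes of nuclei (columns), with the mean over 4 libraries printed in each cell and the shade scaled to the highest class of that gene. The synthesizing enzymes peak in meningeal fibroblasts, CYP26B1 in Bergmann glia (518 CPM) and astrocytes (405 CPM), and RXRG in the oligodendrocyte lineage (14.1 CPM).

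CYP26B1 (ENSMMUG00000012141), the enzyme that clears retinoic acid by oxidation, lay in the glia. Bergmann glia, whose fibres reach up to the meninges, had 300, 562, 464.5 and 745 CPM (mean 518 ± 186, SD, n = 4). Astrocytes had 244, 345, 347 and 684 CPM, and cycling glia had 134, 187, 169 and 453 CPM. The order of these classes was the same in every library, but their ranges overlapped. In all 3 of them the LPS male was the highest library and the Control female the lowest. Bergmann glia and astrocytes together carried most of the gene, with 44.6 and 31.3% of its 7355 UMIs.

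The drop to the other classes was steep. Fibroblasts came next with a mean of 24.0 CPM, 9.83 times below cycling glia. Empty droplets held 127, 75.0, 216 and 56.1 CPM, and none of the 10 other classes reached the droplets of its own library. Bergmann glia and astrocytes were above the droplets in all 4 libraries, and cycling glia in all but the LPS female. Thinned to 1000 UMIs, 26.9, 40.4, 39.5 and 51.2% of Bergmann glia had a UMI of CYP26B1, against 1.24, 0.723, 1.78 and 1.44% of granule nuclei. The counts before thinning gave 74.9, 67.4, 81.2 and 79.7% of Bergmann glia, at median depths of 2156 to 5789 UMIs.

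**Figure D2:**
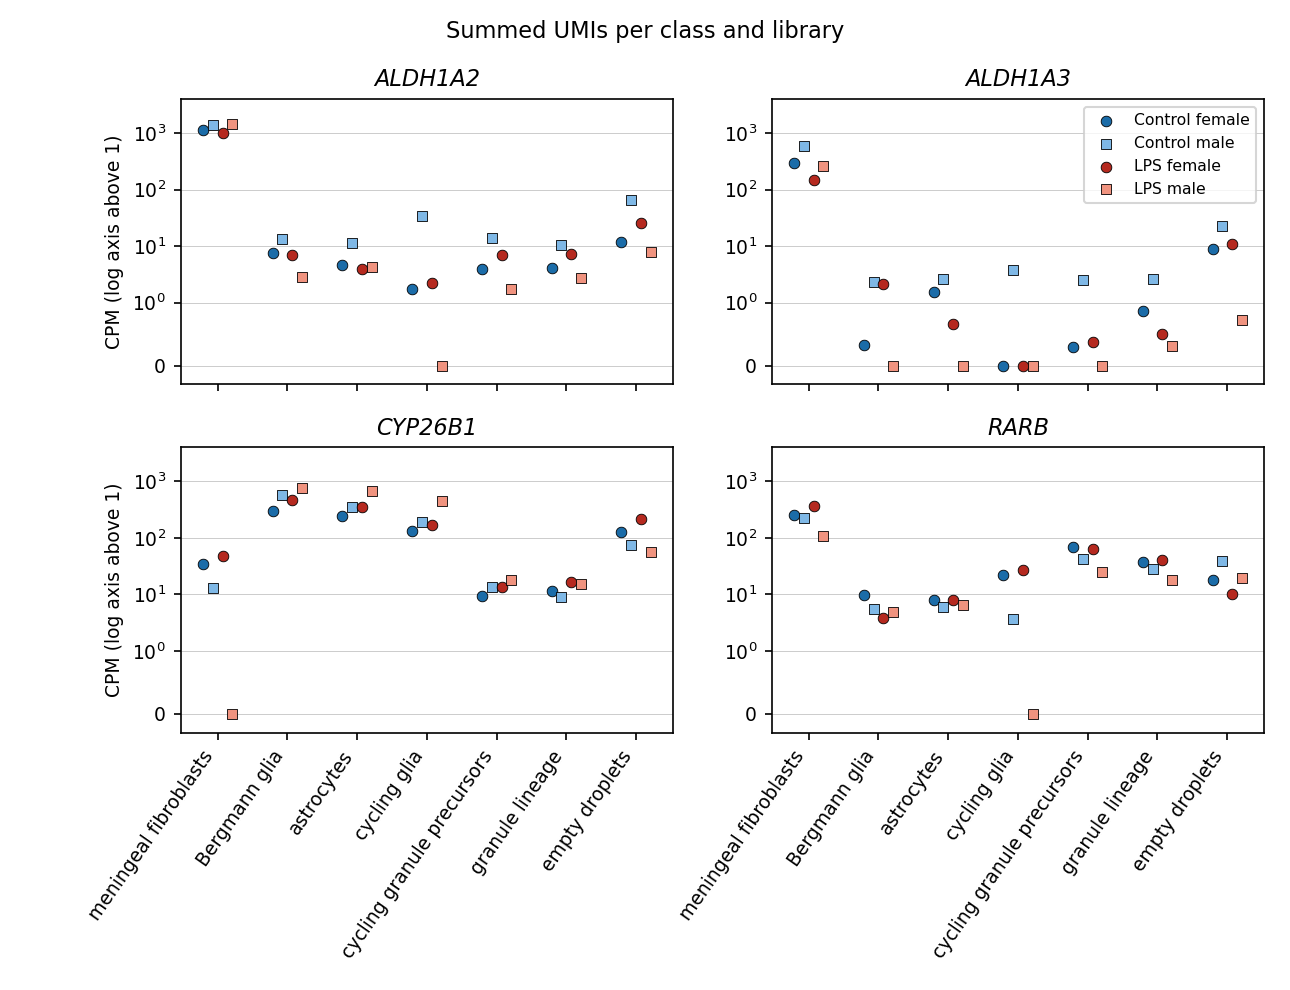
CPM of 4 genes in 6 classes and in empty droplets (horizontal axis), with 1 point for each library and a vertical axis that is logarithmic above 1 CPM. ALDH1A2 and ALDH1A3 are far above the empty droplets in fibroblasts alone, CYP26B1 exceeds them in Bergmann glia and astrocytes, and RARB in fibroblasts and cycling granule precursors.

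RARB (ENSMMUG00000007367), a receptor that is itself a classic target of retinoic acid, was highest in the fibroblasts. Its level there was 250, 226.5, 359 and 109 CPM (mean 236 ± 102, SD, n = 4), with the LPS female at the top and the LPS male at the bottom. The second of the 13 classes was cycling granule precursors, at 69.3, 41.8, 62.3 and 24.6 CPM. No library of these precursors reached the lowest fibroblast library, and the means differed 4.77-fold. Choroid or ependymal cells had 0, 108.9, 132 and 94.8 CPM from 20 UMIs. Granule nuclei followed at 37.9, 27.9, 41.0 and 18.1 CPM and overlapped with the precursors. Both female libraries were above both male ones in these granule classes. Empty droplets had 18.2, 39.2, 10.1 and 19.2 CPM, so cycling precursors exceeded them in all 4 libraries, and granule nuclei only in the female ones. By number, granule nuclei still held most of RARB, 58.9% of 3938 UMIs.

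RARB UMIs were in 58.1, 40.6, 62.2 and 27.5% of fibroblasts, and after thinning in 25.0, 15.9, 30.5 and 10.8%. Thinned granule nuclei had 3.42, 2.55, 4.14 and 1.84%. Detection thus went with the CPM, with the LPS female highest and the LPS male lowest in both classes. RARB was at 3.74 to 9.62 CPM in Bergmann glia and 5.97 to 7.90 CPM in astrocytes. Cycling glia had 22.3, 3.73, 27.1 and 0 CPM from 26 UMIs, above the droplets in both female libraries. The oligodendrocyte lineage had 4.70, 6.43, 25.8 and 7.74 CPM, above them in the LPS female.

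The granule lineage fell into 6 clusters beside the cycling precursors, and the receptors differed among them. The clusters are named here by their leading genes. They are set in order by some of the marker genes, from precursors to GABRA6, a receptor subunit of mature granule cells. This comparison was chosen after the values were seen, no pseudotime was computed and no test was made, since clusters come from the same nuclei. The cycling cluster (BRCA2, ASPM) led the cell cycle markers, the COMP and HSD11B2 cluster had the highest mean of the precursor gene ATOH1 at 4.26 CPM, and the RASGEF1B and ARSF cluster had the highest NEUROD1 at 391 CPM. At the other end the RAB37 and PTK2B cluster had 68.8 CPM of GABRA6, and the TRPC7 and HCRTR2 cluster 13.7 CPM. The other clusters had 3.29 to 6.29 CPM of GABRA6, so it did not order them. Not every listed marker followed the order. KCNIP4 had means of 692 CPM in the RASGEF1B cluster and 9064 CPM in the RAB37 cluster, but RBFOX3 had 3419 and 3357 CPM in these.

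RXRA (ENSMMUG00000008183), the common partner of the retinoic acid receptors, was at the precursor end. It had 11.2, 32.9, 10.0 and 8.80 CPM in cycling precursors, 12.3, 45.3, 7.70 and 14.7 CPM in the COMP cluster and 6.74, 40.0, 6.96 and 17.8 CPM in the RASGEF1B cluster. In the CHRM3 and CLSTN2 cluster it had 0.209, 1.46, 0 and 0.599 CPM, in the TRPC7 cluster 0.106, 1.02, 0.562 and 0.650 CPM, and in the RAB37 cluster 0.612, 4.65, 0 and 1.77 CPM. Within every library, each of the first 3 clusters was above each of the last 3. The UMIs behind this were 126, 121 and 94 in the former and 5, 9 and 17 in the latter, which were the larger clusters, with 3743, 5047 and 3069 nuclei. Empty droplets had 0.128, 3.60, 1.58 and 0.638 CPM of RXRA, near the level of the late clusters.

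RARA (ENSMMUG00000012486), the most widely expressed retinoic acid receptor, lay at the opposite end. It was highest in the RAB37 cluster in every library, at 10.7, 23.3, 16.5 and 33.1 CPM, and second in the TRPC7 cluster, at 8.35, 16.0, 7.13 and 20.8 CPM. In the RASGEF1B cluster it had 1.42, 1.7, 0.928 and 4.11 CPM. The order at the top held in all 4 libraries, with 264 and 228 UMIs behind it. Empty droplets were at 10.8, 7.84, 12.2 and 10.2 CPM, so the RAB37 cluster exceeded them in all but the Control female. The TRPC7 cluster exceeded them only in the male libraries. RARB gave another pattern, with a mean of 63.6 CPM in the COMP cluster, 13.6 in the KIAA1217 and ERBB4 cluster between the ends and 36.8 in the TRPC7 cluster. It was highest in the COMP cluster in all but the LPS male.

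**Figure D3:**
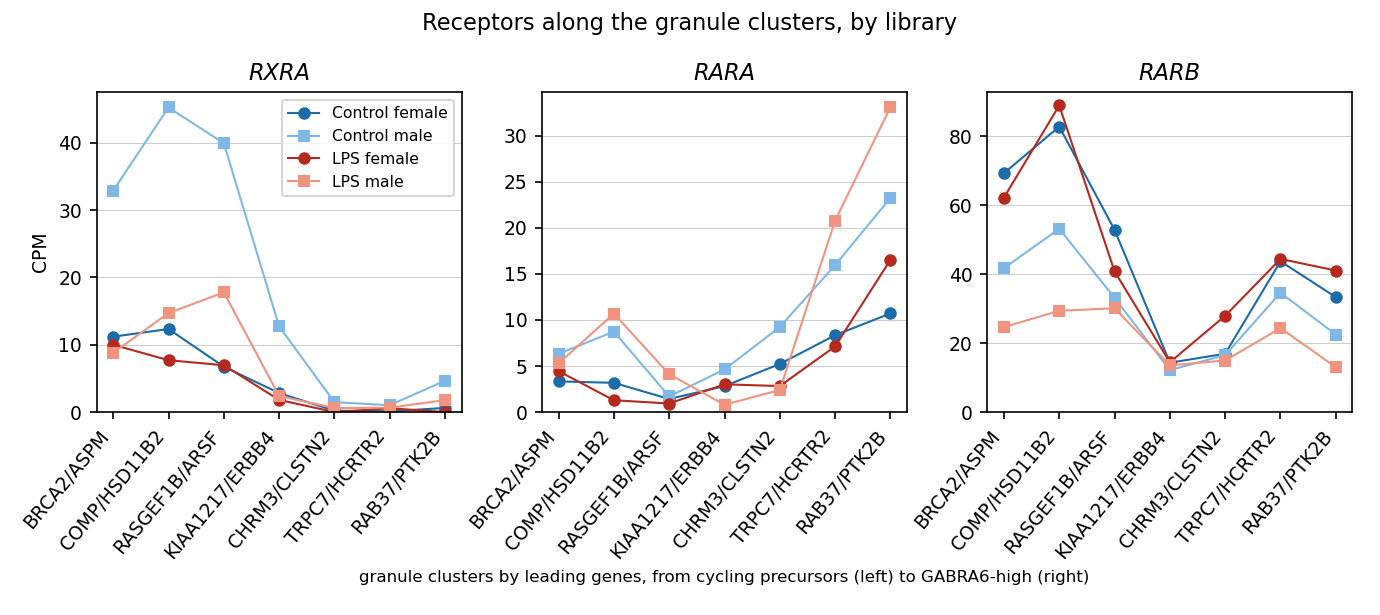
CPM of RXRA, RARA and RARB (vertical axes, linear, from 0) in the 7 clusters of cycling and other granule nuclei (horizontal axis, ordered by some marker genes), with 1 line for each library. RXRA is high in the first 3 clusters and near 0 in the last 3, RARA is highest in the last 2, and RARB has a low point in the KIAA1217 and ERBB4 cluster.

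Outside the granule lineage, RXRA was highest in the glia. Astrocytes had 13.4, 39.8, 16.5 and 26.9 CPM and Bergmann glia 11.9, 37.9, 13.4 and 29.7 CPM, and both male libraries were above both female ones in each class. The ranges of these classes overlapped with cycling glia and the oligodendrocyte lineage, so no single class led. RARA was spread likewise, with means from 4.85 CPM in cycling granule precursors to 21.0 CPM in endothelial cells, the latter from 18 UMIs. Without the LPS male the endothelial mean was 13.6 CPM, below Bergmann glia. In Bergmann glia it had 14.6, 28.6, 12.8 and 27.8 CPM and was above the empty droplets in all 4 libraries.

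RARG (ENSMMUG00000022017) and RXRG (ENSMMUG00000002892) were rare, with 222 and 96 UMIs in all nuclei. RARG had its highest mean in Purkinje cells, at 16.3, 12.8, 13.1 and 32.6 CPM from 25 UMIs, above the empty droplets (0.821 to 2.70 CPM) in all 4 libraries. The oligodendrocyte lineage followed with a mean of 9.07 CPM, and the ranges overlapped. RXRG had its highest mean in the oligodendrocyte lineage, with 40 of its 96 UMIs (41.7%), at 15.3, 9.65, 1.84 and 29.7 CPM. The LPS male was the highest library and the LPS female the lowest. At a finer resolution this lineage fell into a cluster of 374 nuclei with 13 UMIs of RXRG and one of 88 nuclei with 27. The smaller cluster had 64.8, 59.7, 0 and 60.2 CPM, the larger one 5.70, 3.60, 2.17 and 13.8 CPM. The smaller cluster, led by the myelin genes MOBP, MOG and MBP, had 15, 6, 9 and 58 nuclei, and 9, 2, 0 and 16 UMIs of RXRG stood behind its levels.

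The same pathway was followed in a list of 41 other genes, 37 of which were in the matrices. Class levels are given here for a few of them, by role. Before the ALDH1A step, STRA6, the cell surface receptor for retinol, was at 97.9, 215, 109 and 184 CPM in endothelial cells and at 51.5, 88.9, 41.5 and 102 CPM in fibroblasts, with 6.80, 5.51, 6.31 and 1.19 CPM in empty droplets. RDH10, which oxidizes retinol to retinaldehyde, was highest in fibroblasts at 84.8, 86.0, 64.3 and 182 CPM, with 7.57, 9.96, 8.11 and 7.39 CPM in empty droplets. In fibroblasts STRA6 and RDH10, like ALDH1A2, were above the empty droplets in every library.

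DHRS3, which turns retinaldehyde back into retinol, had 91.9, 143, 96.1 and 59.2 CPM in astrocytes and 10.3, 19.3, 9.09 and 10.5 CPM in Bergmann glia. The astrocytes were above the Bergmann glia in every library, unlike for CYP26B1. Endothelial cells had a mean DHRS3 of 133 ± 26.3 CPM (SD, n = 4). The other CYP26 genes were nearly absent, with 13 UMIs of CYP26A1 and 2 of CYP26C1 in all nuclei. CRABP1, which binds retinoic acid in the cytoplasm, was led by molecular layer interneurons at 34.0, 48.5, 63.1 and 25.8 CPM, but empty droplets held 23.4, 1.91, 61.5 and 5.84 CPM. Among the listed targets, ZBTB16 had a mean of 196 ± 64.1 CPM in PAX2 interneurons, and TGM2 65.6 ± 25.96 CPM in endothelial cells (SD, n = 4).

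Genes with the most similar pattern were sought over 52 points, the 13 classes in 4 libraries, among 14318 genes, by Pearson's r of log2(CPM + 1). The points share libraries, depth and composition, so the values are descriptions. ALDH1A2 was most like ITIH2 (0.871), SCARA5 (0.867) and ENSMMUG00000006248 (0.86), and ALDH1A3 like ITIH2 (0.822), KDM5A (0.813) and TBX18 (0.798). CYP26B1 was most like MLC1 (0.894), a membrane protein of astrocytes, ENSMMUG00000038977 (0.891) and ACSBG1 (0.868). RXRA was most like INPPL1 (0.832), RAB34 (0.805) and EFS (0.754). The best matches were weaker for RARB with ENSMMUG00000005716 (0.767), PIK3C3 (0.74) and FHL2 (0.739), for RARA with KSR1 (0.729), SFSWAP (0.679) and COX4I1 (0.679), for ALDH1A1 with CHRM2 (0.663), MARCH6 (0.663) and L3MBTL4 (0.658) and for RARG with ANO1 (0.65), CHST2 (0.645) and CA2 (0.644).

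LPS was compared with Control on UMIs summed per library, in all nuclei and in each of the 13 classes, with edgeR's quasi-likelihood test and Benjamini-Hochberg adjustment. Calls needed adjusted p values below 0.1 together with fold changes beyond 0.25 in size on the log2 scale. None was made, 0% of 16138 genes in all nuclei and 0% in every class. An unadjusted p under 0.05 was found for 37 genes in all nuclei and for 14 to 157 genes in the classes. Each of these counts was below a share of 0.05 of the genes tested, which evenly spread p values would give. These fits had no term for sex and 2 fetuses per group, so the lack of calls does not show that LPS changed no gene. DESeq2 called 5 genes in fibroblasts, 1 in the oligodendrocyte lineage and 0 elsewhere. By edgeR none of the 9 genes, and none of the 32 tested genes of the pathway list, was thus called in either direction. In all nuclei 5 of the 9 had a positive estimate, with a median of 0.042 on the log2 scale, beside 51.2% and 0.0075 for all genes tested. With 2 fetuses per group an exact permutation test of 1 gene cannot go below p = 0.33.

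ALDH1A3 in fibroblasts differed between the groups without overlap, but was not called. Both LPS libraries, at 146 and 262.5 CPM, were below both Control libraries, at 301 and 582 CPM. The log2 fold change was -1.20 (SE 0.43, edgeR adjusted p = 0.9995). The log2 ratio was -1.05 between the females (95% counting interval -1.40 to -0.70) and -1.15 between the males (-1.68 to -0.66). Of the 5 genes tested in fibroblasts it was the only one without overlap, and 27.3% of the 8603 genes tested there had none. Without the Control female the estimate was -1.56 with an edgeR adjusted p of 0.0301, which rests on 1 Control library. Without the Control male it was -0.67. Over all alternatives the adjusted p ran from 0.0301 to 1. The fibroblast marker list as a whole summed to 12900, 13910, 10920 and 9202 CPM, with none of its 13 genes at 0, and it was likewise lower in both LPS libraries. SLC47A1 among them had 10.6, 12.9, 316 and 14.6 CPM, the list for choroid or ependymal cells summed to 43.9, 38.7, 321 and 51.0 CPM, and that for PAX2 interneurons to 380, 281, 1070 and 139 CPM, each highest in the LPS female. The choroid list was high in that library in other classes too, such as granule nuclei with 81.2, 80.0, 352 and 61.7 CPM. Their part in the result was not tested. ALDH1A2 did not separate there, with a log2 fold change of -0.11 (SE 0.31).

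In all nuclei ALDH1A3 was lower in both LPS libraries (log2 fold change -2.12, SE 0.83), and ALDH1A1 (0.36, SE 0.49) and RXRG (0.94, SE 0.83) were higher in both. The ALDH1A3 log2 ratio was -0.29 between the females (95% counting interval -0.61 to 0.02) and -3.62 between the males. Its estimate was -0.83 without the Control male. For ALDH1A1 the Control male and LPS female were nearly equal, at 3.231 and 3.242 CPM. The counting intervals of both its log2 ratios included 0 (-0.03 to 0.77 and -0.17 to 0.79), and its estimate was 0.20 without the LPS male. For RXRG the females were nearly equal, at 0.636 and 0.648 CPM, and the estimate was 0.13 without the LPS male. These 3 of 9 genes stood beside 12.6% of all genes without overlap. Fibroblasts were 0.512% of the nuclei in the LPS male and 1.47 to 2.46% in the other libraries. Sums over all nuclei depend on this share and on the level within fibroblasts, where the ALDH1A3 log2 ratio was -1.15 between the males. The part of either was not tested. The unnamed cluster of low depth was also mostly of the LPS male, and its part was not tested. Without it the log2 fold changes of all 9 genes kept their sign, which does not measure that part.

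CYP26B1 had a positive estimate in each of the 5 classes with at least 100 of its UMIs. The classes come from the same 4 libraries, so these are not 5 separate observations. In astrocytes both LPS libraries, at 347 and 684 CPM, were above both Control libraries, at 244 and 345 CPM (log2 fold change 0.79, SE 0.40). This was 1 of 4 genes tested there, with 17.9% of all genes without overlap. The gap between the Control male and the LPS female was small, 345 against 347 CPM. Granule nuclei had 11.6, 8.99, 16.7 and 15.1 CPM (0.61, SE 0.37) and cycling granule precursors 9.38, 13.3, 13.7 and 17.6 CPM (0.48, SE 0.48), again without overlap but below the empty droplets. In Bergmann glia (0.51, SE 0.40) and cycling glia (0.90, SE 0.48) the groups overlapped. Without the LPS male the estimate was 0.30 in astrocytes, 0.20 in Bergmann glia and 0.15 in cycling glia. The lowest estimate with 1 library left out was 0.39 in granule nuclei (without the Control male) and 0.29 in cycling granule precursors (without the Control female). In the oligodendrocyte lineage, with 46 UMIs, it was -0.26 (SE 0.64) in the fit of all 4 libraries. The log2 ratio of LPS over Control was positive within females and within males in all 5 classes. The empty droplets had 127 and 216 CPM in the Control and LPS females and 75.0 and 56.1 CPM in the males, and their part in these ratios was not tested. The edgeR adjusted p was 0.9997 to 1 for these 5 estimates, and 0.855 to 1 over their alternatives.

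Among the receptors, RXRA had negative estimates in cycling granule precursors (log2 fold change -1.16, SE 0.63) and granule nuclei (-1.48, SE 0.84). The precursors had 11.2 and 32.9 CPM in Control and 10.0 and 8.80 CPM in LPS, which did not overlap. The Control male carried this, as the log2 ratio was -0.16 between females (95% counting interval -0.93 to 0.59) and -1.90 between males (-3.05 to -0.91). Without the Control male the estimate in granule nuclei was 0.01. RARA in granule nuclei had a log2 fold change of 0.55 (SE 0.73), with the LPS male at 19.8 CPM and the other libraries at 5.94, 11.2 and 5.11 CPM. The RAB37 cluster, where RARA was highest, held 1499 nuclei of the LPS male and 617, 572 and 381 of the others. RARB in fibroblasts had 0.05 (SE 0.50), with opposite directions in the sexes.

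Genes without overlap were also counted in the other classes with a tested member. In Bergmann glia it was 1 of 4 tested genes, ALDH1A2, beside 16.7% of all genes, in cycling granule precursors 2 of 6 beside 15.7%, in granule nuclei 2 of 8 beside 12.5%, and in cycling glia 0 of 1 beside 21.6%. It was 0 of 3 in the oligodendrocyte lineage beside 21.1%, 0 of 1 in molecular layer interneurons beside 18% and 1 of 2 in PAX2 interneurons beside 18.9%. The latter was CYP26B1, at 6.75, 8.75, 18.6 and 23.7 CPM from 58 UMIs (log2 fold change 1.43, SE 0.52, edgeR adjusted p = 1), below the empty droplets of each library. With 1 to 8 members tested per class, these counts rest on few genes. All 18 pairs of gene and class with at least 100 UMIs are drawn in the plot of fold changes.

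**Figure D4:**
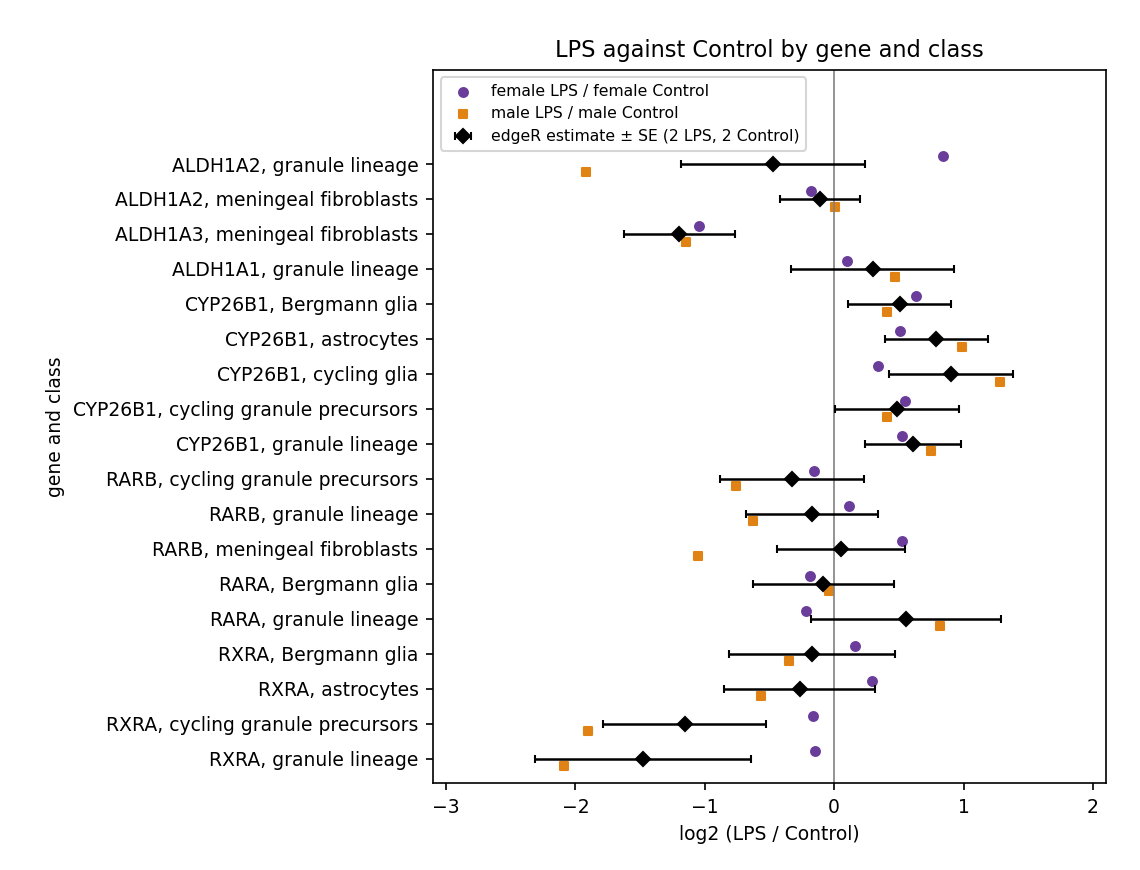
Log2 ratio of LPS over Control (horizontal axis) for the 18 pairs of gene and class with at least 100 UMIs (vertical axis). Diamonds are edgeR estimates from 2 LPS and 2 Control libraries, with an SE derived from the F statistic of the test. Circles and squares are the ratios between the female and between the male libraries. CYP26B1 lies right of 0 in all 5 classes, which share the same libraries. ALDH1A3 in fibroblasts lies left of 0 at -1.20, and none of the 18 was called.

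The libraries of several genes fell into pairs by the sex label of the fetus. This comparison was chosen after the values were seen, and the male libraries also differed in depth and free RNA, so sex and these library differences cannot be told apart. The LPS male was at 133 days and the LPS female at 131. Unnamed nuclei were 5.96, 3.665, 3.88 and 26.2% of the libraries. The RAB37 cluster, where RARA was highest, had more nuclei of the LPS male than of any other library. The part of age and of this mix was not tested. In a fit with terms for sex and exposure, edgeR called 27.9% of all genes in all nuclei between male and female. The background was 21.5% in astrocytes, 17% in Bergmann glia, 16.1% in cycling glia, 37.1% in cycling granule precursors, 25.8% in granule nuclei, 1.58% in fibroblasts, 17.8% in the oligodendrocyte lineage, 18.7% in molecular layer interneurons and 24% in PAX2 interneurons.

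In all nuclei 3 of the 9 genes were called. RARA was at 6.23, 12.97, 5.32 and 18.03 CPM, higher in the males by 1.34 on the log2 scale (SE 0.31, edgeR adjusted p = 0.057). CYP26B1 was at 45.3, 74.4, 62.5 and 84.9 CPM, also higher in the males (0.51, SE 0.14, edgeR adjusted p = 0.082). RARB was at 36.3, 29.2, 42.9 and 17.0 CPM, lower in the males (-0.89, SE 0.26, edgeR adjusted p = 0.084). Within classes RARB was lower in the males in cycling granule precursors (-1.07, SE 0.25, edgeR adjusted p = 0.0049) and granule nuclei (-0.91, SE 0.22, edgeR adjusted p = 0.070). RARA was higher in male granule nuclei (1.34, SE 0.38, edgeR adjusted p = 0.092), and RXRA (1.24, SE 0.34, edgeR adjusted p = 0.072) and CYP26B1 (0.61, SE 0.18, edgeR adjusted p = 0.090) in male Bergmann glia. CYP26B1 in cycling glia was higher in the males by 0.82 (SE 0.28, edgeR adjusted p = 0.032). Alternatives ended the calls of CYP26B1, whose adjusted p by edgeR reached 0.111 in all nuclei, 0.113 in Bergmann glia and 0.162 in cycling glia, and that of RXRA, which reached 0.104. The counts by class were 2 of 4 genes in Bergmann glia, 1 of 1 in cycling glia, 1 of 6 in cycling granule precursors and 2 of 8 in granule nuclei. None of the 5 genes tested in fibroblasts was called, and none of 4 in astrocytes, 3 in the oligodendrocyte lineage, 1 in molecular layer interneurons and 2 in PAX2 interneurons. The count in all nuclei, 3 of 9, was near the 27.9% of all genes.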

How the data were processed

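Single-nucleus RNA was measured in cerebellar tissue of 4 fetuses, 1 library each. The deposited files hold raw UMI counts per gene and barcode, which the authors made with Cell Ranger on the build Mmul_8.0.1 with introns included. The file headers name Cell Ranger 4. No barcode filter and no correction for free RNA had been applied to these counts. The genes and gene lists were chosen with earlier results of these data known. The genes named were the 9 members, genes of the pathway list (some by value, the rest in counts, with 1 gene's values not reported here) and the 3 genes most like each member with at least 100 UMIs. Genome coordinates are not given, since no annotation of this build was used here.

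Barcodes with at least 500 genes were kept as nuclei. Empty droplets were the barcodes ranked at 3 to 6 times the number of nuclei. Nuclei were integrated and clustered with Seurat 5.3.0 (2000 features, 30 dimensions, resolution 0.5), with the retinoic acid genes left out. Clusters were named by marker lists, needing 3 raised markers. A cluster stayed unnamed if its leading genes held more markers of other lists than of its best list. It also did if its depth was low and they held none of the best list. The low-depth cluster was thus unnamed, with 6 of 7 markers of molecular layer interneurons raised. Class names were thus rebuilt here and may differ from those of the study. Doublets were called with Scrublet in scanpy 1.11.5 and kept, except in an alternative. Its own thresholds called 0% in the Control male and 0.0256% in the LPS male. There the median threshold of the female libraries, 0.1891, was used, which called 7.39 and 5.64%. A cluster with over 50% doublets stayed unnamed. UMIs were summed per class and library and given as CPM. For shares, nuclei were thinned to 1000 UMIs, which left out 3122 shallower ones.

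LPS and Control were compared with edgeR 4.0.16 (TMM, filterByExpr, quasi-likelihood test, Benjamini-Hochberg adjustment over all genes tested) in R 4.3.3, with DESeq2 1.42.0 as an alternative. An SE printed with an edgeR estimate is the estimate's absolute size divided by the square root of the test's F statistic. The scripts were tested on simulated data. Other alternatives were size factors, no filter, sex as a block and each library left out. Further ones were 1000 genes, 5% mitochondrial UMIs, doublets left out, resolution 1.0 and free RNA subtracted. No fit of LPS against Control or of male against female had free RNA subtracted. The comparison by sex and the fits without doublets or without the low-depth cluster were added after seeing the data. Intervals cover counting error only.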

Additional observations from a re-analysis of the deposited data

Results flagged for a closer look

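For 4 of 27 log2 ratios of LPS over Control compared between the sexes, the female and male pairs of libraries moved in opposite directions. Each 95% counting interval lay wholly on its own side of no change. With 1 library per sex and group, the difference between the sexes was not tested. For ALDH1A2 in all nuclei the log2 ratio was 0.57 in the females (0.43 to 0.70) and -2.29 in the males (-2.48 to -2.10), a difference of -2.85. Fibroblasts, which held most of this gene, were 1.47% of nuclei in the Control female, 2.26% in the LPS female, 2.46% in the Control male and 0.512% in the LPS male. ALDH1A2 in granule nuclei differed by -2.76, with 0.84 in the females and -1.92 in the males, at levels below the empty droplets. RARB in all nuclei differed by -1.02, with 0.24 in the females and -0.78 in the males. RARB in fibroblasts differed by -1.57, with 0.52 in the females (0.24 to 0.81) and -1.05 in the males (-1.92 to -0.28), and the LPS male had 40 fibroblasts. The part of depth and of nucleus numbers in these differences was not tested.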

How the results depend on the processing

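Levels of the 9 genes in their 2 leading classes moved by less than 1 SD between libraries in the other alternatives, but where few UMIs stood behind them 1 library moved the mean by over 1.5 times. Without the Control male, ALDH1A2 in cycling glia went from 9.40 to 1.33 CPM. Without the LPS male, RXRG in the oligodendrocyte lineage went from 14.1 to 8.93, RARA in endothelial cells from 21.0 to 13.6 and ALDH1A1 in Golgi cells from 11.8 to 7.75 CPM. RXRG in cycling glia went from 2.26 to 0 CPM without the LPS female. Shares of nuclei with a UMI depend on depth, and without thinning their means over libraries were 76.95% for ALDH1A2, 11.28% for ALDH1A1, 51.9% for ALDH1A3 and 47.09% for RARB in fibroblasts, 75.79% for CYP26B1 in Bergmann glia, 9.168% for RARA in endothelial cells, 19.94% for RARG in Purkinje cells, 8.384% for RXRA in astrocytes and 5.491% for RXRG in the oligodendrocyte lineage.

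Of the calls between LPS and Control, none was made in all nuclei or granule nuclei under any alternative. Without the filter on low counts, edgeR called 38 genes in fibroblasts, 11 in Bergmann glia, 10 in endothelial cells, 9 in the oligodendrocyte lineage, 6 in microglia, 6 in molecular layer interneurons, 5 in astrocytes, 5 in cycling granule precursors, 4 in Purkinje cells, 3 in cycling glia, 3 in PAX2 interneurons and 1 in Golgi cells. DESeq2 called 5 in fibroblasts and 1 in the oligodendrocyte lineage. The labels give no replicate numbers that pair the fetuses, so sex was used as the block, and it gave 15 calls in the oligodendrocyte lineage, 4 in cycling glia and 4 in cycling granule precursors. With 1 library left out, the lone library of a group is assumed to vary like the other group. Calls then ran from 0 to 172 in fibroblasts (172 without the Control female), 0 to 325 in microglia (325 without the LPS female), 0 to 72 in endothelial cells, 17 to 66 in PAX2 interneurons, 10 to 56 in the oligodendrocyte lineage, 0 to 49 in Bergmann glia, 0 to 34 in astrocytes, 1 to 22 in molecular layer interneurons, 0 to 15 in cycling granule precursors, 1 to 14 in cycling glia, 1 to 12 in Purkinje cells and 0 to 7 in Golgi cells. ALDH1A3 in fibroblasts was called in 1 of these fits, without the Control female, and its log2 fold change ran from -1.58 to -0.67.

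The log2 fold change turned its sign in 2 other alternatives, for RARG in all nuclei with 1000 genes or more (-0.0039) and for RARB in fibroblasts with sex as a block (-0.13). Leaving out 1 library turned it for 15 of the 27 estimates. These ran in all nuclei from -1.66 to 0.000492 for ALDH1A2, -0.82 to 0.96 for RARA, -0.94 to 0.39 for RARB, -0.18 to 0.32 for RARG and -1.59 to 0.19 for RXRA. In granule nuclei they ran from -1.37 to 0.24 for ALDH1A2, -0.71 to 1.22 for RARA, -0.90 to 0.32 for RARB and -2.20 to 0.0118 for RXRA, and in cycling precursors from -1.21 to 0.19 for RARB. In Bergmann glia they ran from -0.64 to 0.34 for RARA and -0.75 to 0.70 for RXRA, in astrocytes from -0.78 to 0.54 for RXRA, and in fibroblasts from -0.35 to 0.14 for ALDH1A2 and -1.16 to 0.60 for RARB. CYP26B1 stayed positive in all fits of the 5 classes with at least 100 of its UMIs and in all nuclei. These share the same libraries and are not separate observations. Without the LPS male, however, the estimate was 0.15 in cycling glia, 0.30 in astrocytes and 0.20 in Bergmann glia. Without the Control female it was 0.085 in all nuclei and 0.29 in cycling granule precursors, and without the Control male 0.39 in granule nuclei.

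Between male and female, 789 genes were called in astrocytes and 2700 in Bergmann glia without the filter, 1048 in Bergmann glia without doublets, and in fibroblasts 70 with size factors of DESeq2, 367 without the filter and 292 with 1000 genes or more. CYP26B1 was no longer called in all nuclei without the filter (0.48), in Bergmann glia with 1000 genes or more (0.59), without doublets (0.64) or at resolution 1.0 (0.56), or in cycling glia without the filter (0.73) or without doublets (0.89), and RXRA in Bergmann glia was not without doublets (1.21). The cause was not tested.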
